A study of Mus musculus with 6 samples.

Results

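Heat shock proteins and co-chaperones were followed as 10 genes named by symbol: the HSP70 genes Hspa1a, Hspa1b and Hspa8, the HSP110 gene Hsph1, the J-domain gene Dnajb1, the HSP90 genes Hsp90aa1 and Hsp90ab1, and the small heat shock protein genes Hspb1, Hspb7 and Cryab. All 10 were found among the 34714 gene symbols of the count table, and all 10 passed the filter on low counts, which left 15788 genes. The counts came from RNA-seq of the gastrocnemius (Gas) muscle, a mostly fast-twitch calf muscle, of 3 wild-type (WT) and 3 miR-92b knockout (M92KO) mice. The M92KO mice (miR-92b-/-, strain C57BL/6JGpt- Mir-92bem22Cd549/Gpt) carried a global deletion of the microRNA gene in every tissue, and the WT controls were age-matched C57BL/6 mice. Per the labels, both groups were 8 weeks old and had received no treatment. They were kept on a standard diet, and the study describes the animals as male. Its methods mention an overnight fast before muscle was taken from treated mice, without stating whether the untreated mice used here had fasted. Because the deletion is global, the muscle fibres and every other cell type of the tissue lacked miR-92b, and the WT mice are not stated to be littermates. The comparison asks which transcripts differ in muscle when miR-92b is missing.

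Heat shock proteins are molecular chaperones that hold, fold or release other proteins. HSP70 proteins bind unfolded stretches of a client in a cycle driven by ATP. J-domain proteins such as DNAJB1 hand clients to HSP70, HSP110 proteins exchange its nucleotide, and HSP90 proteins take over clients such as kinases and hormone receptors at a late stage of folding. Small heat shock proteins need no ATP and keep damaged proteins soluble, and in striated muscle αB-crystallin (Cryab), HSPB1 and HSPB7 bind at the sarcomere, where they protect desmin, titin and filamin. Transcription of the stress-inducible genes is driven by heat shock factor 1 (HSF1), which binds inverted repeats of the unit nGAAn in promoters, whereas Hspa8 and Hsp90ab1 are expressed in unstressed cells.

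The knockout deletes the gene of both mature strands of the microRNA, which are shown because their seeds (bases 2 to 8, in capitals) decide which transcripts they pair with. The sequences are those of RefSeq on GRCm38.p6, where both lie on the minus strand, miR-92b-3p at chr3:89227126-89227147 and miR-92b-5p at chr3:89227165-89227188.
miR-92b-3p: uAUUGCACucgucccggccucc
miR-92b-5p: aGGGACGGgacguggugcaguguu
The longest annotated 3′-UTR of each of the 10 genes, between 83 bases in Hspa8 and 1834 bases in Dnajb1, was searched for the 7 bases that pair with each seed. Matches to the miR-92b-3p seed (GTGCAAT) were found in 0 of the 10 genes, and so were matches to the miR-92b-5p seed (CCGTCCC). Among 20441 genes with an annotated 3′-UTR, 7.0% held the miR-92b-3p match and 3.2% the miR-92b-5p match. This says only that these letters are not in these windows.

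RefSeq promoters, from 250 bases before to 50 bases after a transcription start, were at hand for 6 of the 10 genes. Of these, 5 are printed to show which windows hold a perfect pair of heat shock units and which do not. That of Hspa1a is left out as a near copy of the Hspa1b promoter. Capitals mark a pair of heat shock units, GAANNTTC or TTCNNGAA, where N is any base. Each form reads the same on both strands, and the forms overlap where units run on.
Hspa1b (chr17:34959189-34959488, minus strand): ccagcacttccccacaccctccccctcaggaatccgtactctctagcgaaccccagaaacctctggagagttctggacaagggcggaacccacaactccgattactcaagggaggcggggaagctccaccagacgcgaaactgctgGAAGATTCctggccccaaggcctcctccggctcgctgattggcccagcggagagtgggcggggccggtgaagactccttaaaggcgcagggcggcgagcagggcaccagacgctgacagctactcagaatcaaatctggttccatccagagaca
Dnajb1 (chr8:83607925-83608224, plus strand): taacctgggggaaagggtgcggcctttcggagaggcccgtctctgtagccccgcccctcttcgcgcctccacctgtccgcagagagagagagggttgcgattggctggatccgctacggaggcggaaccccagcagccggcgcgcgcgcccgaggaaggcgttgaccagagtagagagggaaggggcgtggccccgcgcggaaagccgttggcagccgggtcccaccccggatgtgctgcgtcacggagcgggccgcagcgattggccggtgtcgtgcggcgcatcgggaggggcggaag
Hspb1 (chr5:135887669-135887968, plus strand): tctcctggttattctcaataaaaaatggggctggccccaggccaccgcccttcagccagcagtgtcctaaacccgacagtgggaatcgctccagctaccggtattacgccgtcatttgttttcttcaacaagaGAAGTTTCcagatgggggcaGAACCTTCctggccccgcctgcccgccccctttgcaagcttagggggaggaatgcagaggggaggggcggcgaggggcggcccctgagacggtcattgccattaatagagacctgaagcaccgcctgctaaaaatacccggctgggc
Hspb7 (chr4:141420529-141420828, plus strand): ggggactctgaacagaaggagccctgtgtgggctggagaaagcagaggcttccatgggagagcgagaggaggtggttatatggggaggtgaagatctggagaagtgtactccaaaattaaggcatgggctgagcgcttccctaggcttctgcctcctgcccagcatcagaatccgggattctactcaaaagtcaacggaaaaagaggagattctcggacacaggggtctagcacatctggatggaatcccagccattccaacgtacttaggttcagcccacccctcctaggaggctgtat
Hsph1 (chr5:149636287-149636586, minus strand): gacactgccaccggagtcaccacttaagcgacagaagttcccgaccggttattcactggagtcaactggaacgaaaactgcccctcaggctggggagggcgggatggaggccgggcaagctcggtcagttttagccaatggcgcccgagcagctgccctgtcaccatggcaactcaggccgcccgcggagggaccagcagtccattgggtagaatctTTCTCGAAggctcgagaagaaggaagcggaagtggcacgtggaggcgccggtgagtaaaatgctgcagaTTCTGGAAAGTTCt
Of 32851 mouse promoters of this length, 15.06% held GAANNTTC or TTCNNGAA. The Hspa1b promoter held 1 match, 104 bases before the start, and the Hspa1a promoter, which differs from it at 4 of 300 bases, held the same one at the same place. Hspb1 held 2 matches, at 117 and 97 bases before the start. Hsph1 held 3 in the window printed, at 33 bases before and at 36 and 41 bases after the start. The last 2 form the three-unit run TTCTGGAAAGTTC, and a three-unit run in either direction was found in 0.6% of promoters. The Hsph1 window of another annotated start, not printed, held the same matches at 54 bases before and at 15 and 20 bases after that start. Neither Dnajb1 window (1 per annotated start) nor the Hspb7 window held a match. Imperfect units, which HSF1 also binds, and single units were not searched, so a window without a match may still hold units.

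The 6 libraries held between 33160508 and 48209846 counts, with every M92KO library smaller than every WT library, and 3 counts, taken as the floor, equalled 0.0629 to 0.0916 CPM (counts scaled to the normalized size of the library). Floors and intervals cover counting error only. Muscle fibre genes (Acta1, Ckm, Mb, Pvalb and 4 others) summed to between 109100 and 119200 CPM in WT and between 111100 and 116000 CPM in M92KO libraries, so the genes of the labelled tissue were abundant in every library. The deleted microRNA itself was not analysed here, so the knockout was not checked in these counts. In edgeR's quasi-likelihood test, 0 of the 15788 genes (0%) passed an adjusted p-value of 0.05, and 1955 (12.4%) passed an unadjusted p-value of 0.05, the threshold of the study. By DESeq2's Wald test, 322 genes (2.04%) passed after adjustment.

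Among the 10 chaperone genes, 0 passed the adjusted threshold in edgeR. At the unadjusted threshold, 3 were higher in M92KO mice (Hspb7, Cryab and Hspb1), against 5.47% of all genes, and 3 were lower (Hspa1b, Hspa1a and Dnajb1), against 6.92% of all genes. Reads of Hspa1a and Hspa1b can be placed on either gene, so these calls are not separate measurements. DESeq2 gave 4 of them an adjusted p-value under 0.05 (Hspb7, Cryab, Hspb1 and Dnajb1), against 2.04% of all genes. It gave Hspa1b no p-value, as it does for a gene with an outlying count. The groups did not overlap in 2 genes with all M92KO values above (Hspb7 and Cryab, where 8.77% of all genes did so) and in 2 with all M92KO values below (Hspa1b and Dnajb1, 9.58%). The median log2 fold change of the 10 genes was 0.08, against 0 over all genes tested, with members on both sides of 0. Which genes were lower depended on single libraries. Without WT mouse 3, 4 of the 10 were higher (with Hsph1 added), against 3.46% of all genes, and 1 was lower (Dnajb1), against 4.49%, where 7.95% of all genes passed in either direction. Dnajb1 was also the 1 gene lower without M92KO mouse 1, where 8.96% of all genes were lower, so that 1 of 10 is near the background. Without M92KO mouse 2 there were 2 (Dnajb1 and Hspa1b), against 6.14% of all genes.

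**Figure D1:**
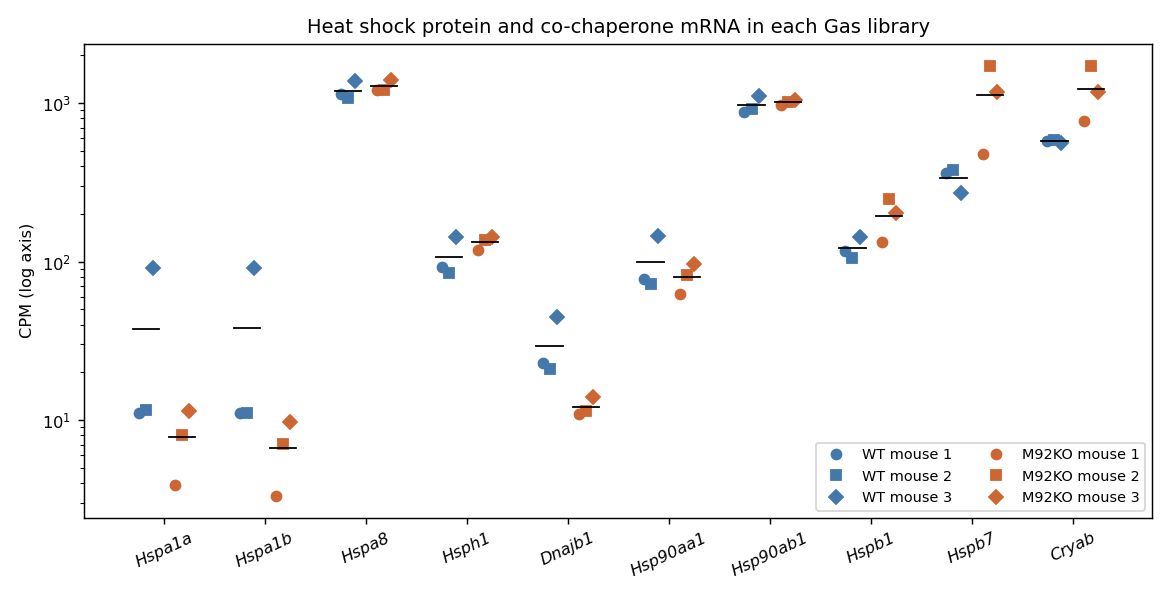
CPM of the 10 genes on a log axis in each of the 6 libraries, with circles, squares and diamonds for mice 1, 2 and 3 of each group and a black line at each group mean. WT mouse 3 stands far above the other libraries in Hspa1a and Hspa1b at 90.5 and 91.5 CPM, and M92KO mice 2 and 3 stand above all WT mice in Hspb7, Cryab and Hspb1.

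The small heat shock protein genes were higher in M92KO muscle at the unadjusted threshold, by amounts that differed between the M92KO mice. Hspb7, a small heat shock protein of heart and skeletal muscle, stood at 363, 378 and 271 CPM in the WT mice and at 474, 1713 and 1180 CPM in the M92KO mice. The groups did not overlap, and among the M92KO mice the first lay far below the others. Mean levels were 337 ± 58.0 CPM for WT muscle and 1122 ± 621 CPM for M92KO muscle (SD, n = 3 each). The log2 fold change was 1.73 (SE 0.386, with an edgeR adjusted p = 0.179), or 3.33-fold. On GRCm38 the gene spans 141420779 to 141425311 of chromosome 4 (plus strand).

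Cryab, which encodes αB-crystallin, showed the same order of mice. It stood at 580, 585 and 563 CPM in WT and at 775, 1725 and 1166 CPM in M92KO mice. The WT values were close together, with a coefficient of variation of 1.98%, against 39.1% among the M92KO mice. On the log2 scale the difference was 1.08 (SE 0.239, with an edgeR adjusted p = 0.179), or 2.12-fold. Cryab spans 50751325 to 50756636 of chromosome 9 (plus strand), and an exon of it overlaps an exon of Hspb2 on the minus strand. Whether reads were counted by strand is not given in the sources used here, so reads of the overlap cannot be told apart. The counts of Hspb2 were 2243, 1692 and 1922 in the WT mice and 1932, 1565 and 1857 in the M92KO mice, few beside the 22596 to 56490 counts of Cryab. Scaled to library size, Hspb2 stood at 48.55, 43.8 and 40.27 CPM in WT and at 55.63, 47.79 and 51.15 CPM in M92KO mice. Its log2 fold change was 0.22, in the direction of Cryab.

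Hspb1, which encodes a small heat shock protein that binds actin filaments, stood at 116, 105 and 143 CPM in WT and at 132, 247 and 202 CPM in M92KO mice. M92KO mouse 1 lay within the WT range, and the other two lay above it. This gave a log2 fold change of 0.67 (SE 0.209, with an edgeR adjusted p = 0.269). Hspb1 lies on chromosome 5 from 135887919 to 135889563. Leaving out M92KO mouse 1 brought all 3 small heat shock protein genes to an adjusted p-value under 0.05 in edgeR, with log2 fold changes of 2.10 for Hspb7, 1.33 for Cryab and 0.89 for Hspb1 and adjusted p-values of 0.004, 0.00602 and 0.0208. In that fit, 401 genes (2.5%) passed. When any of the remaining 5 libraries was dropped instead, the estimates ran from 1.29 to 1.82 for Hspb7, from 0.75 to 1.12 for Cryab and from 0.46 to 0.81 for Hspb1, and 0 of the 3 passed the adjusted threshold in any of these 5 fits.

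The ratio of small heat shock protein genes to each other also moved with the mouse. Hspb7 counts were 62.6%, 64.6% and 48.1% of Cryab counts in the WT mice and 61.2%, 99.3% and 101% in the M92KO mice. M92KO mouse 1 was near WT mice 1 and 2, and the groups overlapped (two-sided exact permutation test, p = 0.3). Hspb1 counts were 20.1%, 17.9% and 25.4% of Cryab counts in WT and 17.1%, 14.3% and 17.3% in M92KO mice, without overlap. For 3 mice against 3, the smallest two-sided p-value of the exact permutation test is 0.1, which this ratio reached.

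The stress-inducible HSP70 genes went the other way, and here a single WT library set most of the difference. Hspa1b stood at 11.02, 11.16 and 91.55 CPM in the WT mice and at 3.31, 7.02 and 9.69 CPM in the M92KO mice. WT mouse 3 was 8.26 times the mean of WT mice 1 and 2, and every M92KO value lay below every WT value. M92KO over WT came to a log2 fold change of -2.51 (SE 0.836, with an edgeR adjusted p = 0.298). Without WT mouse 3 it was -0.73 with an adjusted p = 0.667, so the size of the difference rests on that mouse. The direction was kept in each of the 6 fits that left out a library, from -2.95 to -0.73. The unadjusted p-value of edgeR, 0.016 with all libraries, was 0.0779 without WT mouse 3 and 0.0526 without M92KO mouse 1.

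Hspa1a, which encodes a nearly identical inducible HSP70 protein, stood at 11.02, 11.6 and 90.48 CPM in WT and at 3.89, 8.03 and 11.5 CPM in M92KO mice. M92KO mouse 3 lay within the WT range, at about the level of WT mice 1 and 2. The log2 fold change was -2.28 (SE 0.818, with an edgeR adjusted p = 0.329), and -0.54 without WT mouse 3 (adjusted p = 0.767). Its unadjusted p-value in edgeR, 0.0224 with all libraries, was 0.179 without WT mouse 3, 0.0696 without M92KO mouse 1 and 0.0607 without M92KO mouse 2. The genes lie 9952 bases apart on the minus strand of chromosome 17, Hspa1b from 34956436 to 34959238 and Hspa1a from 34969190 to 34972156. Of the stretches of 100 bases in the Hspa1a transcript, 47.1% were found unchanged in Hspa1b, so the counting could place the same read on either gene, and an exon of Hspa1a also overlaps Gm20481 on the other strand.

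The sum of both genes did not depend on that placement. It came to 22.04, 22.76 and 182 CPM in WT and to 7.20, 15.1 and 21.2 CPM in M92KO mice. The groups did not overlap, but M92KO mouse 3 and WT mice 1 and 2 were near each other. The log2 fold change of the sum was -2.39 (SE 0.821, with an edgeR adjusted p = 0.312), and -0.63 without WT mouse 3 (adjusted p = 0.699). Its unadjusted p-value in edgeR was 0.0184 with all libraries, 0.118 without WT mouse 3, 0.0584 without M92KO mouse 1 and 0.0522 without M92KO mouse 2. The share of Hspa1b in the summed counts was 50.0%, 49.0% and 50.3% for the WT mice, against 46.0%, 46.6% and 45.8% for the M92KO mice. The 95% Wilson interval was 49.2% to 51.3% in the deepest WT library and 42.3% to 49.4% in M92KO mouse 3, while that of M92KO mouse 1, with 250 counts in all, ran from 39.9% to 52.2%.

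Dnajb1, the J-domain partner that stimulates the ATPase of HSP70, was lower at the unadjusted threshold with and without WT mouse 3. It stood at 22.9, 21.2 and 44.6 CPM in the WT mice and at 11, 11.42 and 14.05 CPM in the M92KO mice. The groups did not overlap, and the M92KO mice lay close together. On the log2 scale the difference was -1.28 (SE 0.270, with an edgeR adjusted p = 0.179), which is 2.43-fold lower. Without WT mouse 3 it was -0.86, with a smaller unadjusted p-value than in the fit of all libraries, and an adjusted p = 0.396. Dnajb1 spans 83608193 to 83612653 of chromosome 8 (plus strand).

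**Figure D2:**
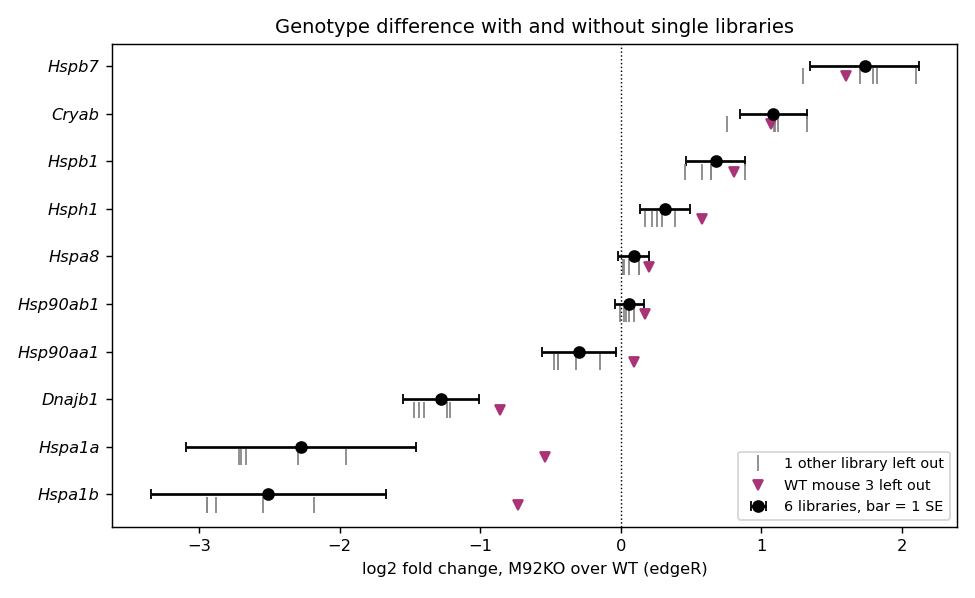
Log2 fold change of M92KO over WT from edgeR for each gene, with bars of 1 standard error for all 6 libraries, grey ticks for fits without 1 of 5 libraries, and triangles for the fit without WT mouse 3. The triangles of Hspa1a, Hspa1b and Dnajb1 lie closer to 0, at -0.54, -0.73 and -0.86, while those of Cryab and Hspb7 stay at 1.07 and 1.60.

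The abundant constitutive chaperones did not pass the test in either direction. Hspa8, the constitutive HSP70 that also strips clathrin from vesicles, had 1138, 1080 and 1368 CPM in WT and 1209, 1206 and 1407 CPM in M92KO mice. The groups overlapped, and the log2 fold change was 0.09 (SE 0.110, with an edgeR adjusted p = 0.790). Hsp90ab1, the constitutive HSP90, had 877, 917 and 1113 CPM in WT and 969, 1019 and 1046 CPM in M92KO mice, a log2 fold change of 0.06 (SE 0.101, with an edgeR adjusted p = 0.854). Its M92KO values all lay within the WT range. Hspa8 lies on chromosome 9 from 40800984 to 40810087, with small nucleolar RNA genes inside it, and Hsp90ab1 on chromosome 17 from 45567775 to 45573271.

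Their inducible relatives varied more, again through WT mouse 3. Hsp90aa1, the stress-inducible HSP90 and a partner of myosin folding in muscle, had 77.4, 72.7 and 146 CPM in WT and 62.7, 82.5 and 95.9 CPM in M92KO mice. This gave a log2 fold change of -0.30 (SE 0.264, with an edgeR adjusted p = 0.708), and without WT mouse 3 it turned to 0.10 (adjusted p = 0.919). No direction is given for it. Hsph1, the HSP110 that exchanges the nucleotide of HSP70, had 92.5, 84.2 and 142 CPM in WT and 119, 136 and 142 CPM in M92KO mice. The log2 fold change of Hsph1 was 0.31 (SE 0.181, with an edgeR adjusted p = 0.539). Without WT mouse 3 it was 0.58 with an unadjusted p-value of 0.000694, although the adjusted p-value was 0.484. Hsph1 lies on chromosome 5 from 149614287 to 149636376 and Hsp90aa1 on chromosome 12 from 110690605 to 110702728, both on the minus strand.

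Ratios within a library need no scaling between libraries. Hspa1a and Hspa1b together came to 1.94%, 2.11% and 13.3% of Hspa8 counts in WT and to 0.595%, 1.25% and 1.504% in M92KO mice. Dnajb1 came to 2.01%, 1.96% and 3.26% of Hspa8 counts in WT and to 0.910%, 0.947% and 0.999% in M92KO mice. Neither ratio overlapped between the groups, and both gave the smallest p-value the exact permutation test allows, 0.1. The Dnajb1 ratio was nearly the same in all 3 M92KO mice, with a mean of 0.952% ± 0.0446 (SD, n = 3). Hsph1 over Hspa8, from 7.79% to 10.4% in WT and from 9.81% to 11.3% in M92KO mice, overlapped.

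Per kilobase of the longest annotated transcript, the levels of the 10 genes can be set in order. In WT muscle Cryab was highest at 516 ± 10.2 CPM per kilobase (SD, n = 3), followed by Hsp90ab1 at 384 ± 50.1 and Hspa8 at 378 ± 48.2 CPM per kilobase (SD, n = 3 each). The values of Hsp90ab1 and Hspa8 overlapped. Hspb1 at 131 ± 21.3 and Hspb7 at 122 ± 20.96 CPM per kilobase (SD, n = 3 each) came next and overlapped with each other, then Hsp90aa1 at 30.1 and Hsph1 at 22.3. Hspa1b, Hspa1a and Dnajb1 were lowest, at 13.5 ± 16.6, 12.7 ± 15.4 and 9.86 ± 4.36 CPM per kilobase (SD, n = 3 each). Each overlapped its neighbours in the order. WT mouse 3, at 32.7 and 30.5, set the means of Hspa1b and Hspa1a. In WT mice 1 and 2 Hspa1b stood at 3.93 and 3.98, and Hspa1a at 3.71 and 3.91. Dnajb1 stood above both in these mice, at 7.64 and 7.06 CPM per kilobase. In M92KO muscle Cryab was first at 1094 ± 428 CPM per kilobase (SD, n = 3). Hspb7 at 405 ± 224, Hspa8 at 403 ± 36.4 and Hsp90ab1 at 401 ± 15.5 CPM per kilobase came next (SD, n = 3 each). The values of Hspb7 in single M92KO mice, from 171 to 618 CPM per kilobase, overlapped those of Hspa8 and Hsp90ab1. These neighbours cannot be told apart. In M92KO mouse 1 Hspb7 stood at 171, below Hspa8 at 383 and Hsp90ab1 at 384 CPM per kilobase.

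Some of the 10 genes stood apart in the same mice. WT mouse 3 was more than 2 times the mean of WT mice 1 and 2 in 3 of the 10 (Hspa1b, Hspa1a and Dnajb1), against 0.874% of all genes tested, and more than 1.5 times in 5 (also Hsp90aa1 and Hsph1), against 3.04%. Among 8745 genes with a mean of at least 10 CPM, ranked by this ratio, Hspa1b and Hspa1a came 2nd and 3rd. Hspb1 came 159th at 1.296 times, Hsp90ab1 218th at 1.241 times and Hspa8 232nd at 1.233 times. WT mouse 3 was thus also high in these genes, by less. Cryab came 6202nd at 0.967 times and Hspb7 8677th at 0.731 times. In the M92KO group, mice 2 and 3 averaged more than 2 times mouse 1 in 3 genes (Hspb7 at 3.05, Hspa1b at 2.52 and Hspa1a at 2.51), against 2.13% of all genes. Cryab stood at 1.87 times, Hspa8 at 1.08 times and Hsp90ab1 at 1.07 times. In the counts for both groups Hspa1a and Hspa1b enter as 2 genes, though their reads can be placed on either. Hspa8 and Hsp90ab1 varied by 12.7% and 13.04% in WT and 9.01% and 3.87% in M92KO mice (coefficient of variation). The median of the 8745 genes, most of them less abundant, was 4.72% in WT and 8.36% in M92KO mice.

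**Figure D3:**
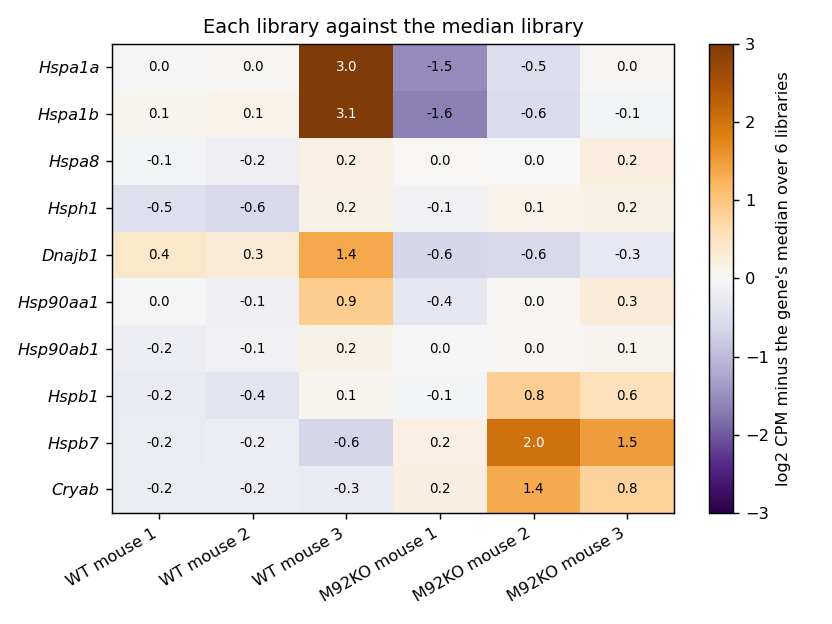
Log2 CPM of each gene in each library minus the gene's median over the 6 libraries, from purple (below) to orange (above). WT mouse 3 reaches 3.01 and 3.15 in Hspa1a and Hspa1b and 1.37 in Dnajb1, while M92KO mice 2 and 3 reach 2.02 and 1.48 in Hspb7 and 1.36 and 0.79 in Cryab.

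Immediate early genes, which respond within minutes to activity, injury or handling, also had their highest sum in WT mouse 3. The 10 genes of that list summed to 472, 935 and 1860 CPM in WT and to 551, 645 and 625 CPM in M92KO mice. At the unadjusted threshold 0 of the 10 were higher in M92KO mice, against 5.47% of all genes, and 2 (Junb and Nr4a1) were lower, against 6.92%. Fos stood at 137 CPM in WT mouse 3 against 10.4 to 34.4 CPM in the other libraries. The part of the immediate early genes in the Hspa1a, Hspa1b and Dnajb1 result was not tested. M92KO mouse 1, in which Hspa1a and Hspa1b were lowest, also had the lowest immediate early sum of the M92KO mice, above that of WT mouse 1. Among the M92KO mice, however, mouse 2 had the highest sum, while Hspa1a and Hspa1b were highest in mouse 3. The sum was 472 CPM in WT mouse 1 and 935 CPM in WT mouse 2. Hspa1a and Hspa1b together stood at 22.04 and 22.76 CPM in these mice.

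Fibre type markers were set beside the small heat shock protein genes, since Cryab and its relatives are more abundant in oxidative fibres. Slow fibre genes (Myh7, Tnnt1 and 5 others) summed to between 178 and 262 CPM in WT and between 127 and 225 CPM in M92KO mice. Of these 7 genes, 0 passed the unadjusted threshold in either direction, against 12.4% of all genes. Of the 8 general fibre genes, 1 was higher at that threshold, against 5.47% of all genes. This was Myh2, the myosin heavy chain of oxidative fast (IIa) fibres. Myh2 stood at 2124, 2239 and 1612 CPM in WT and at 2018, 3575 and 4099 CPM in M92KO mice, with M92KO mouse 1 at the WT level and mice 2 and 3 above, as for Hspb1. M92KO over WT gave a log2 fold change of 0.70 (SE 0.242, with an edgeR adjusted p = 0.314). The part of fibre composition in the small heat shock protein result was not tested, and in whole muscle more fibres of a type cannot be told apart from more RNA per fibre.

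Other cell types can contribute chaperone transcripts too. Endothelial markers summed to between 861 and 931 CPM in WT and 788 and 950 CPM in M92KO mice, with 1 of 6 lower at the unadjusted threshold. For this list and the lists below, the shares of all genes at that threshold were 6.92% lower and 5.47% higher. Fibroblast markers summed to between 1421 and 1789 CPM in WT and between 943 and 1331 CPM in M92KO mice, with 2 of 6 lower (Dcn and Col1a1). Schwann cell markers had 3 of 6 lower, leukocyte markers 1 of 6, and fat and red cell markers 0 of 5 each among those tested, with 0 higher in any of these lists. Their sums ran from 123 to 167 CPM in WT and 122.5 to 126.5 CPM in M92KO mice for Schwann cells, and from 72.5 to 80.9 and 57.3 to 81.9 CPM for leukocytes. Fat cell sums ran from 305 to 361 and from 305 to 377 CPM, and red cell sums from 74.0 to 223 and from 143 to 336 CPM. No listed marker was at 0 in every library. Their part in the result was not tested.

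The rest of the chaperone network was read from 7 lists with 61 genes, of which 60 were tested and Cryaa, the lens crystallin, was not. At the unadjusted threshold 16 of the 60 (26.7%) were higher in M92KO mice, against 5.47% of all genes, and 2 (3.33%) were lower, against 6.92%. After adjustment 0 passed in edgeR, against 0% of all genes, and 4 in DESeq2, against 2.04% of all genes. The number higher was 25 without M92KO mouse 1, where the share of all genes higher also grew, to 9.62%. It was 6 without M92KO mouse 3 (4.64% of all genes), 7 without WT mouse 2 (3.32%), 9 without WT mouse 1 (4.16%) and 10 without M92KO mouse 2 (4.38%). Without M92KO mouse 1, 4 were lower, against 8.96% of all genes, and 6 passed after adjustment, against 2.5%. Of the 18 genes in either direction, 13 were also among the 14 called without WT mouse 3. Most differences were small, with a median log2 fold change of 0.09 over the 60 genes against 0 over all genes tested.

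**Figure D4:**
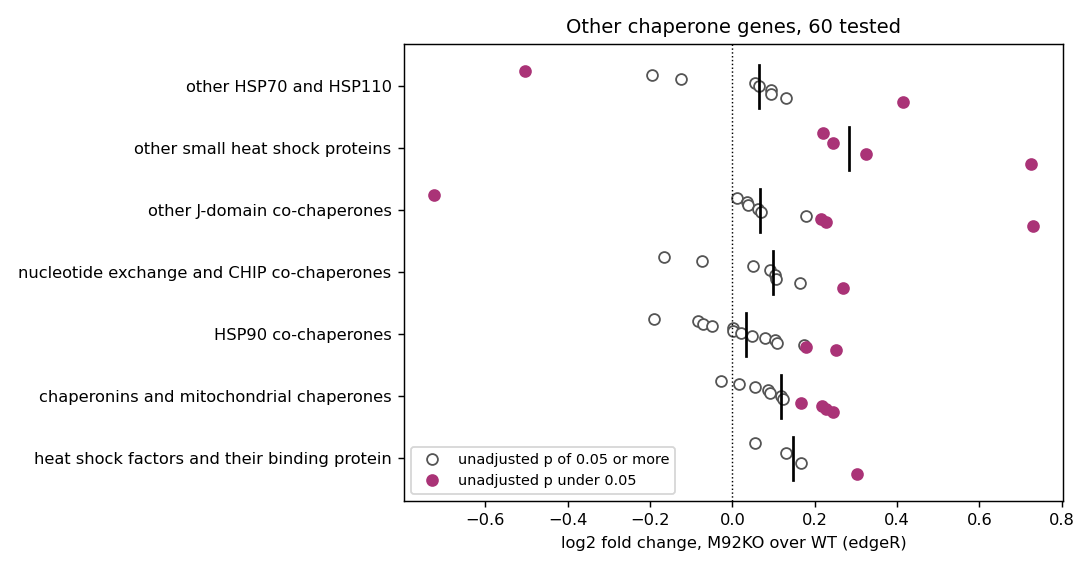
Log2 fold change of M92KO over WT from edgeR for the 60 other chaperone genes tested, by list, with filled points at an unadjusted p-value under 0.05 and a black line at each list's median. The small heat shock protein list has the highest median, 0.28, and the genes lowest on the axis are Dnaja1 at -0.72 and Hspa2 at -0.50.

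The other small heat shock protein genes tested, Hspb2, Hspb3, Hspb6 and Hspb8, were all 4 higher at the unadjusted threshold, against 5.47% of all genes. Hspb6, which encodes the abundant muscle protein HSP20, stood at 863, 855 and 782 CPM in WT and at 1023, 1643 and 1468 CPM in M92KO mice. The groups did not overlap, and M92KO mouse 1 was again the lowest of its group. The log2 fold change came to 0.73 (SE 0.158, with an edgeR adjusted p = 0.179). Hspb8, a partner of BAG3 in the disposal of damaged filamin, stood at 416, 345 and 425 CPM in WT and at 495, 490 and 499 CPM in M92KO mice, a log2 fold change of 0.32 (SE 0.0894, with an edgeR adjusted p = 0.232). Bag3 itself had a log2 fold change of 0.27 (SE 0.0973, with an edgeR adjusted p = 0.335), with every M92KO value above the WT values. Hspb3 and Hspb2, the latter next to Cryab, had log2 fold changes of 0.24 and 0.22, and their groups overlapped.

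Among 10 other J-domain genes, 3 were higher, against 5.47% of all genes, and 1 was lower, against 6.92%. Dnaja1, an inducible partner of HSP70, stood at 91.4, 93.4 and 152 CPM in WT and at 61.2, 67.7 and 74.9 CPM in M92KO mice. WT mouse 3 was highest, as for Dnajb1, and the groups did not overlap. M92KO over WT gave a log2 fold change of -0.72 (SE 0.187, with an edgeR adjusted p = 0.213). Dnaja4, a J-domain gene abundant in muscle, stood at 166, 155 and 153 CPM in WT and at 156, 314 and 317 CPM in M92KO mice, so that M92KO mouse 1 was at the WT level. The log2 fold change came to 0.73 (SE 0.232, with an edgeR adjusted p = 0.281). Dnajb2 and Dnajc7 had log2 fold changes of 0.23 and 0.22 without overlap between the groups.

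Of 9 other HSP70 and HSP110 genes, 1 was higher at the unadjusted threshold, against 5.47% of all genes, and 1 lower, against 6.92%. Hspa2 was lower, with a log2 fold change of -0.50 (SE 0.118, with an edgeR adjusted p = 0.186). It went from 11.7 ± 0.501 CPM in WT to 8.26 ± 1.11 CPM in M92KO muscle (SD, n = 3 each). The higher gene was Hspa1l, next to Hspa1a on the chromosome, at 0.42 with overlapping groups. Hspa12b was at -0.20, above the unadjusted threshold. Of the 11 chaperonin and mitochondrial chaperone genes, 4 were higher (Hspe1, Cct6a, Cct3 and Cct8), against 5.47% of all genes, and 0 lower, against 6.92%. The M92KO values lay above the WT values in 7 of the 11, against 8.77% of all genes. Hspe1, the lid of the mitochondrial chaperonin, had 59.8 ± 0.941 CPM in WT and 70.8 ± 3.12 CPM in M92KO muscle (SD, n = 3 each), a log2 fold change of 0.24. Among 14 HSP90 co-chaperones, 2 were higher, against 5.47% of all genes, and 0 lower, against 6.92%. Stip1, which links HSP70 with HSP90, and Ahsa1, which stimulates the HSP90 ATPase, were higher by 0.25 and 0.18 on the log2 scale. Unc45a was at -0.19, above the threshold. Stub1 (CHIP) and Bag5, of the list of nucleotide exchange and CHIP co-chaperones, were at 0.17 and -0.17, both above the threshold but without overlap.

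Of the 4 genes for heat shock factors and their binding protein, 1 (Hsf2) passed the unadjusted threshold, against 12.4% of all genes in either direction. Hsf1, the main stress-responsive factor, stood at 44.1, 37.2 and 43.8 CPM in WT and at 49.3, 44.1 and 43.5 CPM in M92KO mice, a log2 fold change of 0.13 (SE 0.0887, with an edgeR adjusted p = 0.615). WT mouse 3, with its high Hspa1a and Hspa1b, did not stand apart in Hsf1. Hsf2 had a log2 fold change of 0.30 (SE 0.128, with an edgeR adjusted p = 0.388), with M92KO mouse 1 at the WT level at 48.8 CPM and mice 2 and 3 at 66.2 and 70.2 CPM. Hsf4 was at 0.17 with overlapping groups.

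Genes whose log2 CPM followed that of Hspa1b most closely over the 6 libraries were sought among 8735 other genes of at least 10 CPM. The highest were Otud3 (Pearson's r = 0.996), Prkch (0.990), Rnf123 (0.986), Fam117b (0.982) and Cdc42ep4 (0.979). The 6 libraries share a genotype within each group, and the M92KO libraries were the shallower ones. Their range was far smaller, since WT mouse 3 was 1.14 times the mean of WT mice 1 and 2 in Otud3 and 1.35 times in Fam117b. With so few libraries 79 genes had an r above 0.9, so the coefficients only describe these libraries. Among the highest for Hspa8 were Capn1 (0.990), Lamb2 (0.979), Utp4 (0.978) and Tbc1d10b (0.972).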

How the data were processed

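Gas muscle RNA of 3 WT and 3 M92KO mice was sequenced as 1 library per mouse with a SMARTer mRNA kit. The authors deposited raw counts per gene symbol, without normalization. GRCm38 (mm10) is the build in the submitters' processing notes, while the aligner, the counter, its strand setting and its annotation are not given in the sources used here. Groups and replicate numbers came from the labels, which name no batch or date. Where nothing states separate litters or cages, p-values measure the spread between these samples. Libraries held between 33160508 and 48209846 counts.

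The tests used edgeR 4.0.16 in R 4.3.3: filterByExpr (minimum count 10, minimum total 15), TMM normalization, and glmQLFit and glmQLFTest for M92KO against WT without a covariate, with Benjamini-Hochberg adjustment over all 15788 genes. The standard error is the log2 fold change divided by the square root of F. CPM use TMM-scaled library sizes. Exact permutation tests of 3 mice against 3 were two-sided, on log2 values.

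Alternatives were DESeq2 size factors, DESeq2's Wald test (1.42.0), no count filter, at least 10 counts in every library, the study's steps (quantile normalization, log2 after adding 1, limma 3.58.1), the replicate number as a block, lowess offsets (span 0.3) for GC content and for length, and each library left out. All 34714 symbols are in the RefSeq table of GRCm38.p6. GENCODE M21 (GRCm38) gave positions, with 25686 symbols matched directly and 419 by a synonym. miRNA and promoter sequences are RefSeq's on GRCm38.p6. The genes and the gene lists were chosen with earlier results of these data known. Beside the 10 genes, those named are up to 3 per list with the smallest p-value, and the 5 genes most like Hspa1b and Hspa8, of which 1 is not reported here; others were chosen after their values were seen. Python 3.11.15 (pandas 2.3.3, matplotlib 3.10.9) made the summaries and plots.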

Additional observations from a re-analysis of the deposited data

How the results depend on the processing

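Across 129 alternative log2 fold changes of the 10 genes, 117 kept their direction and their side of an unadjusted p-value of 0.05, and 8 kept the direction but passed to the other side of it, towards a larger p-value. In 2 the p-value fell below it, both of Hsph1, and 2 changed sign. Hsp90aa1 ran from -0.476 without WT replicate 2 to 0.10 without WT replicate 3, and Hsp90ab1 from -0.006 without WT replicate 1 to 0.171 without WT replicate 3. The cause was not tested.

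With the study's steps, which test all 34714 symbols, 2 of the 10 genes were higher (Hspb7 and Cryab), against 3.58% of all, and 1 was lower (Dnajb1), against 3%. Hspb1 lost its call (0.62, unadjusted p-value of 0.0791 from limma), the sum of Hspa1a and Hspa1b stood at -1.76 (unadjusted p-value of 0.169 from limma), 42 genes of all passed the adjusted threshold, and 54.4% of the unadjusted calls were higher in M92KO mice, against 44.1% in the edgeR fit. DESeq2 gave 322 genes of all (2.04%), 4 of the 10 and 4 of the other chaperone genes an adjusted p-value under 0.05. It gave no p-value for Hspa1b or for the sum. Without the count filter 6 genes of all passed.

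With a library left out, the genes of all ran from 531 to 1545 higher, 691 to 1439 lower and 0 to 401 adjusted. For the 10 genes these were 3 to 4, 1 to 3 and 0 to 3, and for the other chaperone genes 6 to 25, 2 to 4 and 0 to 6. The sum of Hspa1a and Hspa1b ran from -2.82 to -0.63.

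Same-numbered libraries deviated together only weakly (correlations of 0.074, 0.038 and 0.015), and the labels state no pairing, so the numbers were not taken as pairs. Still, 4 of 6 libraries matched their own number best, which does not speak against pairs. With the replicate block, 2 genes of all passed the adjusted threshold, and at the unadjusted one 4 of the 10 were higher, with Hsph1 (0.35) added, against 4.35% of all, and 3 were lower, against 6.37%.

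With 3 mice a group, differences of the size seen in Hspa8 and Hsp90ab1 were not detectable beyond the spread between mice. Counts of at least 115 per library for every one of the 10 genes leave the spread between mice, rather than counting error, as the main limit.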
